A study of Cricetulus griseus with 24 samples.

Results

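Genes of autophagy and of the lysosome were followed in 3 Chinese hamster ovary (CHO) cell lines at exponential and stationary growth phase. The group was given as a list of 41 gene symbols with these functions, and each symbol was matched to the symbols of the count table without regard to case. Of the 41 members, 39 had an entry among the 28037 genes of the table, and Atg7 and Ctsl had none under those symbols. The study sequenced messenger RNA (mRNA) to compare an antibody-producing line with its amplified progeny in each growth phase, with a line that makes no antibody as the negative control. A0 is an antibody-producing CHO DG44 clone, and A1 is the progeny of that clone after amplification with methotrexate. The control is the CHO-S line, and the titles of its libraries carry the letters NDST, which the labels do not explain. Each phase has 4 cultures of A0, 3 of A1 and 3 of CHO-S, and each culture number of exponential A0 has 2 libraries. The titles use the same culture numbers in both phases, and whether these stand for the same cultures is not stated in them. The titles of the added libraries end in RLT or Duplicate, which the labels do not explain; they were taken to come from the culture of the same number and their counts were summed, so that 24 libraries gave 20 values per gene. Each line is 1 clone or 1 line, so the tests measure a difference against the spread between cultures of a line and not between clones.

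Autophagy wraps a part of the cytoplasm in a growing membrane, which closes into an autophagosome and fuses with the lysosome, where acid hydrolases digest the contents. A protein kinase complex and a lipid kinase complex start the membrane, ubiquitin-like conjugation anchors LC3 and GABARAP proteins in it, and cargo receptors link these proteins to what is to be digested. Transcription factors of the MiT/TFE family drive many lysosomal and autophagy genes when nutrients run short, and lysosomal proteases and lipases of CHO cells are known contaminants of antibody harvests.

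Total counts on genes ranged from 8479208 to 14586630 in the 8 libraries of exponential A0, from 10727892 to 12913264 in the 4 of stationary A0, and from 11823294 to 13060749 in the 3 of exponential A1. They ranged from 6532373 to 12140773 in stationary A1 and from 12449462 to 14652646 in exponential CHO-S. Stationary culture 1 of CHO-S stood apart: it had 1038026 counts against 14290792 and 7516854 in cultures 2 and 3, and 12792 genes with a count against 16891 and 15923. Over the 2655 genes with a mean of at least 100 CPM (counts scaled to library size), its median absolute log2 distance from the other cultures of its group was 0.57, against 0.037 to 0.16 in the 17 cultures of the other groups. Cultures 2 and 3 of the same group, measured in part against culture 1, were at 0.297 and 0.276. Of the 39 members, 31 were lower in culture 1 than in both other stationary CHO-S cultures and 8 were higher, with a median log2 difference of -0.54. Where counts of called members use stationary CHO-S, they are therefore given with and without this culture. Other values of that group are with all cultures unless stated. Whether the low depth of culture 1 plays a part in those results was not tested. Of 5 leukocyte markers, 4 had an entry, and none of these exceeded 0.228 CPM in any culture.

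In A0, more members rose than fell in stationary phase: 21 of the 39 rose and 3 fell, where 17.7% and 20.1% of the 20267 genes tested rose and fell. Called here means an adjusted p under 0.05 in the quasi-likelihood test of edgeR, adjusted over all genes tested by the method of Benjamini and Hochberg, and changes are log2 fold changes ± standard error (SE). The median change of the members was 0.38, against 0.0013 over all genes tested, and with A0 cultures 3 and 4 only 13 members rose and 2 fell. In A1, 21 members rose and 7 fell, against 15.6% and 17.8% of all genes, with a median of 0.23 against 0.032 over all genes. The A1 counts were 23 and 4 with upper-quartile scaling and 17 and 3 by DESeq2. With all 6 groups in 1 fit they were 12 and 1, where the number of all genes called went from 6196 to 2470. They were 17 and 4 without A1 exponential culture 1, 19 and 4 without exponential culture 3, and 18 and 4 without stationary culture 2. In CHO-S, 7 members passed edgeR's test and all 7 rose, against 6.81% of genes higher and 6.48% lower, with a median of 0.13 against 0.023; at an unadjusted p under 0.05 the counts were 8 higher and 3 lower, and DESeq2 called 8 higher and 0 lower. Without stationary culture 1, 24 members rose and 4 fell in CHO-S, against 23.1% and 24.7% of all genes, with a median of 0.27 against 0.0028, and the 7 earlier calls were kept. The count of 7 in CHO-S also changed when other cultures were left out. Without stationary culture 2 or 3, 1 member was called, where 337 and 574 of all genes were called in place of 2308. Without exponential culture 1, 2 or 3, 0 members were called, where 310, 0 and 282 of all genes were. In these fits without an exponential culture, 7 or 8 members were higher and 0 lower at an unadjusted p under 0.05 by edgeR. With the replicate block edgeR called 0 members and 350 of all genes in CHO-S. Lipa, Wipi1, Map1lc3a, Optn, Lamp2, Atg12 and Ctsa so lost their calls. At an unadjusted p under 0.05 the counts with that block were 7 higher and 1 lower. Counts within a role, given below, stand against the same shares of all genes. Since mRNA was read from whole cultures, a shift in which cells were present and a change in mRNA per cell cannot be told apart.

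In A0 all stationary values lay above all exponential ones for 18 members and below for 2, in A1 for 19 and 7, and in CHO-S, culture 1 included, for 10 and 5. Over all genes tested the shares apart in the same way were 16.7% above and 19.1% below in A0, 19.3% and 23.8% in A1, and 14.7% and 21.6% in CHO-S. Atg12, Wipi1, Optn and Lamp2 rose in all 3 lines with all cultures, and 14 members did so without CHO-S stationary culture 1, where 2.2% and 5.67% of the genes tested in each line did. Those 14 were Ulk2, Atg12, Wipi1, Map1lc3b, Gabarap, Gabarapl1, Sqstm1, Nbr1, Optn, Lamp2, Ctsb, Ctsd, Gaa and Psap. Ulk1, Atg3, Atg5, Wipi2, Mitf and Mcoln1 passed the test in no line, with or without that culture, and Becn1 in none with all cultures. Of the genes tested in each line, 41.4% passed in none with all cultures and 30.3% without that culture.

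**Figure D1:**
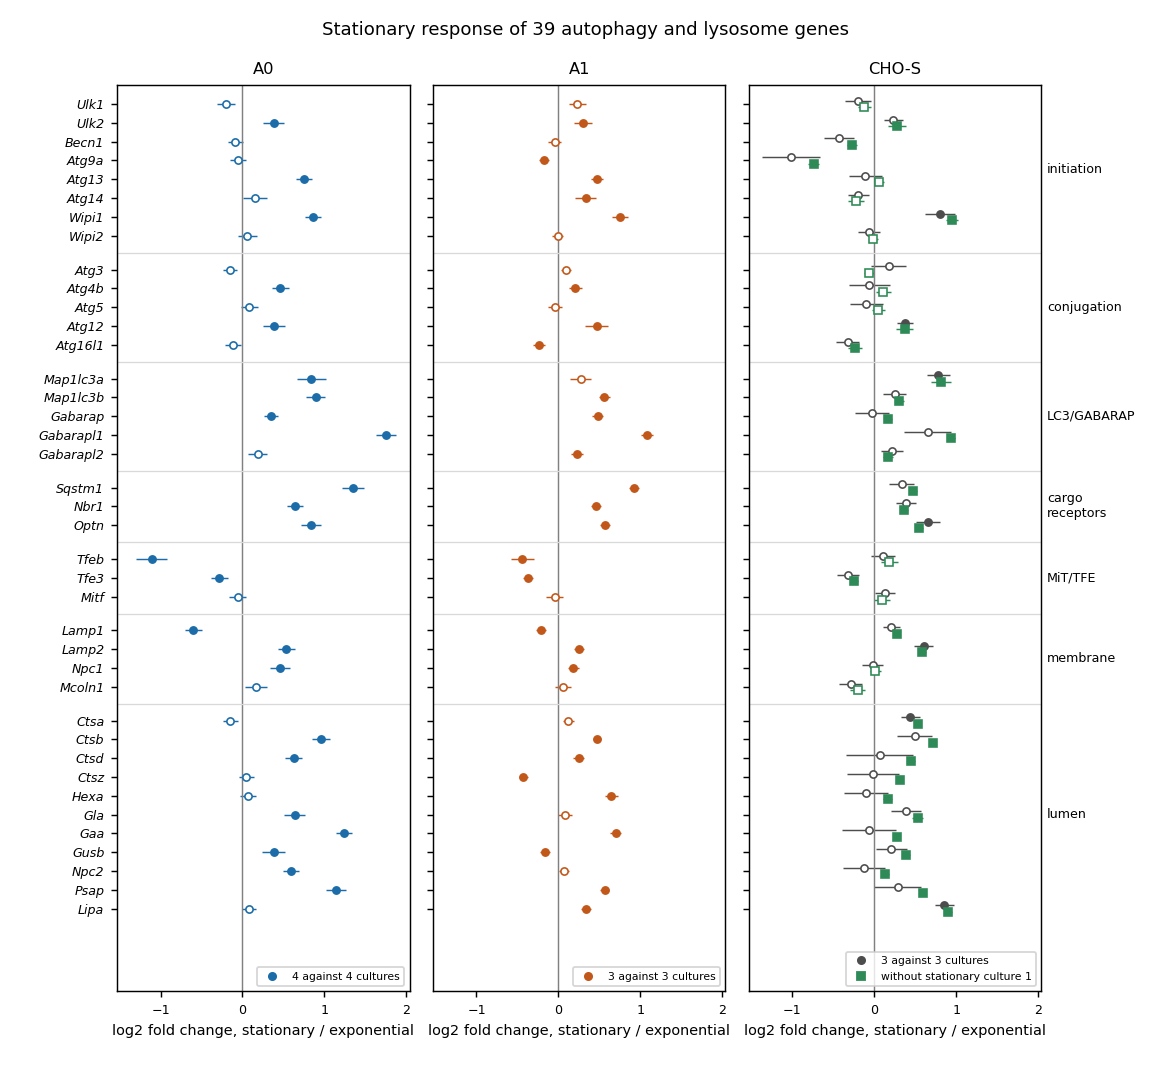
Log2 fold change (x axis) of each of 39 members (y axis, grouped by role) between stationary and exponential phase in A0, A1 and CHO-S, with bars of 1 SE; filled symbols passed the test, open ones did not, and squares in the CHO-S panel leave out stationary culture 1. Gabarapl1 and Sqstm1 lie farthest to the right in A0 and A1, and Tfeb lies farthest to the left in A0 and in A1.

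The LC3 and GABARAP proteins, which are anchored in the autophagosome membrane, included the member with the largest rise in A0 and in A1. Gabarapl1 (gene 100771320), of the GABARAP branch, was at 34.9, 27.9, 32.3 and 31.97 CPM in exponential A0 and at 133, 112, 99.7 and 86.9 CPM in stationary A0. In A1 it was at 41.2, 40.4 and 44.5 CPM in exponential and 85.03, 87.4 and 91.1 CPM in stationary cultures. CHO-S held 96.8, 99.5 and 97.96 CPM in exponential and 79.5, 197 and 177 CPM in stationary cultures. Every stationary culture of A0 and A1 lay above every exponential culture of the same line, whereas in CHO-S culture 1 lay below the exponential values and cultures 2 and 3 lay well above them. The change was 1.75 ± 0.13 (adjusted p = 3.53e-08) in A0, a 3.37-fold rise, and 1.08 ± 0.07 (adjusted p = 1.7e-13) in A1. In CHO-S it was 0.65 ± 0.29 (adjusted p = 0.182) with all cultures, which did not pass, and 0.94 ± 0.05 (adjusted p = 2.87e-30) without culture 1.

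Map1lc3b, which encodes the LC3 protein most used as an autophagosome marker, was at 87.6, 83.7, 88.2 and 109.8 CPM in exponential and 202, 185, 152 and 153 CPM in stationary A0. Its values in A1 were 63.4, 71.2 and 74.6 CPM and then 100.1, 105 and 99.2 CPM, and in CHO-S 112, 115 and 98.9 CPM and then 115, 129 and 141 CPM. The phases did not overlap in A0 or A1, and they overlapped in CHO-S; the changes were 0.89 ± 0.12 in A0 and 0.56 ± 0.07 in A1, both called, and 0.25 ± 0.14 in CHO-S, not called (0.31 ± 0.05 without culture 1, called). Map1lc3a, another LC3 gene, was at 6.08, 4.39, 5.21 and 7.64 CPM in exponential and 12.004, 8.91, 11.4 and 9.82 CPM in stationary A0, and at 10.4, 10.03 and 8.05 CPM and 12.4, 16.3 and 17.3 CPM in CHO-S. Stationary values were higher without overlap in both lines, with changes of 0.84 ± 0.18 in A0 and 0.78 ± 0.14 (adjusted p = 0.0131) in CHO-S (0.82 ± 0.12 (adjusted p = 1.01e-08) without stationary culture 1). The CHO-S call of Map1lc3a was lost without any 1 exponential culture and without stationary culture 2 or 3 (adjusted p = 0.0885 to 0.107). In A1, where exponential cultures already held 10.96 to 16.2 CPM and stationary ones 13.7 to 18.2 CPM, its change of 0.27 ± 0.13 did not pass. Gabarap spanned 92.9 to 257 CPM over the 20 cultures and Gabarapl2, which also works in Golgi transport, 45.2 to 95.98 CPM. Gabarap rose in A0 and A1 (0.35 and 0.48) and Gabarapl2 in A1 (0.23); in CHO-S both passed in the fit without culture 1 (0.17 and 0.17) and not with all cultures (-0.03 and 0.22). Of the 5 genes of this family 4 rose in A0, 4 in A1 and 1 in CHO-S, or 5 in CHO-S without culture 1.

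All 3 cargo receptors rose in A0 and in A1. Sqstm1 (gene 100768352) encodes the receptor that binds ubiquitinated protein and is itself digested, and it was at 62.2, 59.6, 72.4 and 72.4 CPM in exponential and 212, 180.3, 163 and 130.2 CPM in stationary A0. It was at 89.3, 92.1 and 91.3 CPM in exponential and 176, 183 and 152 CPM in stationary A1. CHO-S stood at 208, 212 and 201 CPM in exponential cultures and at 203, 286 and 288 CPM in stationary ones. Within A0 and within A1 no stationary culture overlapped the exponential ones, and in CHO-S culture 1 fell inside the exponential range while cultures 2 and 3 lay above it. The changes were 1.35 ± 0.13 (adjusted p = 8.0e-07) in A0, 0.92 ± 0.07 (adjusted p = 1.69e-12) in A1 and 0.33 ± 0.16 (adjusted p = 0.207) in CHO-S, where the value without culture 1 was 0.47 ± 0.045 (adjusted p = 4.17e-16). Optn, a receptor for ubiquitinated mitochondria and bacteria, was at 105, 113, 130.3 and 152 CPM and 263, 238, 210.1 and 193 CPM in exponential and stationary A0, and at 101, 96.7 and 97.8 CPM and 182, 143 and 145 CPM in CHO-S. Its stationary values were the higher ones in every culture of both lines, with changes of 0.84 ± 0.13 in A0, 0.56 ± 0.06 in A1 and 0.66 ± 0.15 (adjusted p = 0.0272) in CHO-S (0.54 ± 0.05 (adjusted p = 3.79e-16) without culture 1). The CHO-S call of Optn was lost without any 1 exponential culture and without stationary culture 2 or 3 (adjusted p = 0.0756 to 0.136). Nbr1, a receptor related to Sqstm1, ranged over 149.6 to 186 CPM in exponential and 239 to 296 CPM in stationary A0, over 105 to 117 and then 145 to 157 CPM in A1, and over 176 to 196 and then 226 to 253 CPM in CHO-S. Its changes of 0.64 ± 0.10 and 0.46 ± 0.06 passed in A0 and A1, and its 0.39 ± 0.12 in CHO-S did not (0.36 ± 0.048 without culture 1, which passed).

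Among the 8 genes that start the membrane, 3 rose in A0, 4 rose and 1 fell in A1, and 1 rose in CHO-S, or 2 rose and 2 fell there without culture 1, near the 23.1% and 24.7% of all genes. Wipi1, which binds the phosphoinositide made by the lipid kinase complex, was at 21.5, 22.3, 23.2 and 21.3 CPM in exponential and 43.2, 41.1, 39.8 and 37.5 CPM in stationary A0. It was at 22.7, 22.1 and 23.6 and 40.95, 33.02 and 40.3 CPM in the same phases of A1, and at 32.1, 28.7 and 31.97 and 37.2, 60.7 and 58.1 CPM in CHO-S. The phases were apart in each line, with changes of 0.86 ± 0.10 in A0, 0.75 ± 0.09 (adjusted p = 1.55e-07) in A1 and 0.80 ± 0.18 (adjusted p = 0.0277) in CHO-S (0.95 ± 0.07 (adjusted p = 8.8e-21) without culture 1). The CHO-S call of Wipi1 did not hold without any 1 exponential culture or without stationary culture 2 or 3 (adjusted p = 0.124 to 0.166). Atg13, the adaptor of the starting kinase complex, was at 29.2, 30.7, 33.004 and 34.8 CPM in exponential and 56.02, 58.2, 50.2 and 52.1 CPM in stationary A0, and at 42.9, 44.6 and 45.3 CPM and 68.5, 56.1 and 58.6 CPM in A1. Its phases were apart in both lines and it rose by 0.75 ± 0.10 and 0.47 ± 0.08; in CHO-S it was at 65.4, 69.4 and 64.7 CPM and 40.2, 69.3 and 69.1 CPM, overlapping, with -0.11 ± 0.20 (0.06 ± 0.06 without culture 1), neither of which passed.

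Atg9a, the lipid scramblase of the vesicles that seed the membrane, went the other way: it was at 74.01, 73.8 and 70.8 CPM in exponential and 10.3, 43.5 and 43.8 CPM in stationary CHO-S, against 96.03 to 117 CPM in A0 and 89.1 to 105 CPM in A1. All 3 stationary CHO-S cultures were lower, and the value of culture 1 rested on 10 counts. The change in CHO-S was -1.02 ± 0.35 (adjusted p = 0.102), which did not pass, and -0.74 ± 0.07 (adjusted p = 2.55e-17) without culture 1; in A1 it fell (-0.17 ± 0.06), and in A0 the change was -0.06 ± 0.10. For Atg9a the A1 call was lost by DESeq2, with upper-quartile scaling and with all 6 groups in 1 fit. Ulk1 and Ulk2 encode kinases of the starting complex and ranged over 18.5 to 41.3 and 11.97 to 20.03 CPM; Ulk2 rose in A0 and A1 (0.38 and 0.30), while Ulk1 had changes from -0.21 in A0 to 0.23 in A1 that did not pass. Becn1 and Atg14 belong to the lipid kinase complex and ranged over 40.7 to 84.4 and 10.4 to 26.05 CPM; Atg14 rose in A1 (0.33) and Becn1 was lower in all 3 stationary CHO-S cultures (43.3 to 71.2 against 80.01 to 84.4 CPM), with -0.43 ± 0.18 that did not pass and -0.27 ± 0.06 without culture 1 that did. Wipi2, which recruits the conjugation machinery, ranged over 69.1 to 137 CPM and its changes lay between -0.06 in CHO-S and 0.06 in A0.

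Of the 5 conjugation genes, 2 rose in A0, 2 rose and 1 fell in A1, and 1 rose in CHO-S, or 1 rose and 1 fell there without culture 1, against 23.1% and 24.7% of all genes, and the 1 that fell in A1 stands against 17.8%. Atg12, the ubiquitin-like protein that is joined to Atg5, was at 6.58, 6.83, 6.81 and 6.41 CPM in exponential and 10.1, 8.57, 7.87 and 8.69 CPM in stationary A0, at 6.95, 8.28 and 9.30 and 11.8, 10.2 and 11.7 CPM in A1, and at 14.9, 14.8 and 14.4 and 19.6, 18.8 and 19.2 CPM in CHO-S. Its phases did not overlap in any line, and it rose by 0.39 ± 0.14, 0.47 ± 0.14 and 0.37 ± 0.09 in A0, A1 and CHO-S (0.37 ± 0.11 in CHO-S without culture 1). Its CHO-S call was lost without any 1 exponential culture, without stationary culture 2 or 3, and with the replicate block. Atg4b, the protease that trims LC3 and GABARAP proteins, ranged over 25.1 to 31.7 CPM and then 36.2 to 39.5 CPM in A0 and over 40.97 to 49.1 CPM and then 47.1 to 54.02 CPM in A1. Its phases were apart in A0 and overlapped in A1, and it rose in both (0.46 ± 0.10 and 0.21 ± 0.08), while CHO-S held 24.1, 25.3 and 27.1 CPM and then 7.22, 29.2 and 24.9 CPM (-0.06 ± 0.25, and 0.11 ± 0.09 without culture 1, neither called). Atg16l1, which places the conjugate on the membrane, was at 53.7, 51.4 and 50.1 CPM in exponential and 44.6, 46.2 and 39.4 CPM in stationary A1, lower in all 3 stationary cultures, and fell, with a change of -0.24 ± 0.08 (adjusted p = 0.0156). That call was lost without A1 exponential culture 1 or stationary culture 3 (adjusted p = 0.0823 and 0.137), by DESeq2, with upper-quartile scaling and with all 6 groups in 1 fit. In CHO-S Atg16l1 was at 28.6 to 30.7 CPM and then 17.5 to 26.97 CPM, with -0.32 ± 0.14 that did not pass and -0.24 ± 0.09 without culture 1 that did. Atg3, the conjugating enzyme for LC3, and Atg5 ranged over 64.4 to 118 and 21.7 to 52.6 CPM, with changes between -0.15 and 0.17 for Atg3 and between -0.10 and 0.09 for Atg5.

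Of the 11 genes of the lysosomal lumen, 7 rose in A0, 6 rose and 2 fell in A1, and 2 rose in CHO-S, or 11 without culture 1. Gaa (gene 100755105), the acid alpha-glucosidase that digests glycogen, was at 639.7, 636, 661 and 732 CPM in exponential and 1718, 1735, 1519 and 1386 CPM in stationary A0. It was at 533, 475 and 597 CPM and 772, 867 and 934 CPM in A1, and at 561, 583 and 569.9 CPM and 257, 704 and 674 CPM in CHO-S. Stationary values were above all exponential ones in A0 and A1, and in CHO-S culture 1 was below them and cultures 2 and 3 above. The changes were 1.24 ± 0.10 (adjusted p = 1.54e-07) in A0, a 2.36-fold rise, 0.70 ± 0.07 (adjusted p = 1.11e-09) in A1 and -0.06 ± 0.33 (adjusted p = 0.934) in CHO-S, with 0.28 ± 0.04 (adjusted p = 6.86e-09) without culture 1. Psap (gene 100760327), the precursor of the saposins that help lipid hydrolases, was at 596, 609, 607 and 709 CPM and then 1688, 1513, 1236 and 1183 CPM in A0, and at 741, 703 and 811 CPM and then 1009, 1154 and 1130.2 CPM in A1. In CHO-S it was at 1123, 1138 and 1089.7 CPM and then 715, 1692 and 1663 CPM. Again the phases were apart in A0 and A1, with culture 1 of CHO-S on the low side and cultures 2 and 3 on the high side of the exponential values. Psap changed by 1.14 ± 0.12 (adjusted p = 1.63e-06) in A0, 0.57 ± 0.06 in A1 and 0.29 ± 0.29 (adjusted p = 0.566) in CHO-S, with 0.59 ± 0.038 (adjusted p = 1.37e-25) without culture 1.

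Ctsb (gene 100756995), a cysteine protease, was at 478, 479, 499.7 and 518 CPM in exponential and 1099, 1066, 896 and 805 CPM in stationary A0, a 1.94-fold rise of 0.96 ± 0.11 (adjusted p = 3.52e-06). In A1 it ranged over 416 to 462 CPM and then 569 to 607 CPM, and in CHO-S it was at 462, 452 and 444 CPM and then 420.05, 764 and 721 CPM. The phases were apart in A0 and A1, and CHO-S overlapped through culture 1; the changes were 0.47 ± 0.05 in A1, which passed, and 0.50 ± 0.21 in CHO-S, which did not (0.72 ± 0.041 without culture 1, which did). Ctsd, an aspartic protease, ranged over 248 to 321 CPM and then 386 to 503 CPM in A0 and over 228 to 261 CPM and then 250.3 to 300.5 CPM in A1, and in CHO-S it was at 345, 348 and 339 CPM and then 130.04, 478 and 462 CPM. It rose in A0, where the phases were apart (0.62 ± 0.11), and in A1, where they overlapped (0.25 ± 0.07), and its change in CHO-S was 0.07 ± 0.41, or 0.45 ± 0.042 and called without culture 1. Gla, Gusb and Npc2 rose in A0. Gla, the alpha-galactosidase that digests globosides, was at 54.3, 45.3, 46.1 and 61.01 CPM and then 95.7, 90.003, 71.7 and 66.8 CPM there, and at 34.9 to 40.8 CPM and then 35.98 to 41.4 CPM in A1. Npc2, which hands cholesterol to Npc1, was at 438, 409, 404 and 459 CPM and then 712, 685, 636 and 561 CPM in A0, and at 358 to 417 CPM and then 371 to 417 CPM in A1. For Gla and Npc2 the phases were apart in A0 and overlapped in A1, with changes of 0.64 ± 0.13 and 0.59 ± 0.10 in A0 that passed and 0.08 ± 0.08 and 0.07 ± 0.06 in A1 that did not. In CHO-S Gla was at 39.7 to 42.9 CPM and then 36.1 to 60.8 CPM, and Npc2 at 385 to 405 CPM and then 212 to 450.2 CPM, with 0.39 ± 0.19 and -0.13 ± 0.26 that did not pass and 0.53 ± 0.07 and 0.14 ± 0.043 without culture 1 that did.

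Gusb, the beta-glucuronidase, was at 281, 246, 167 and 205 CPM and then 341, 293, 267 and 277 CPM in A0, with overlap between the phases, and at 159, 146 and 156 CPM and then 130.4, 135 and 140.3 CPM in A1, with none. It rose in A0 (0.38 ± 0.14) and fell in A1 (-0.16 ± 0.06), and in CHO-S, at 161, 161 and 165 CPM and then 131, 211 and 213 CPM, its change was 0.21 ± 0.19, or 0.39 ± 0.047 and called without culture 1. In A1 the call of Gusb was lost by DESeq2, with upper-quartile scaling and with all 6 groups in 1 fit. Ctsz, a carboxypeptidase of the cysteine protease family, was at 584, 606 and 641 CPM in exponential and 404, 471 and 466 CPM in stationary A1, lower in all 3 stationary cultures, and fell, with a change of -0.43 ± 0.06 (adjusted p = 6.01e-07), a call that was lost with all 6 groups in 1 fit. In A0 it ranged over 485 to 576 CPM (0.048 ± 0.09), and in CHO-S it was at 553, 564 and 553 CPM and then 268, 712 and 662 CPM (-0.015 ± 0.32, and 0.31 ± 0.041 without culture 1, which passed). Hexa, a subunit of beta-hexosaminidase, was at 68.97, 66.5 and 81.3 CPM and then 97.8, 114 and 122 CPM in A1, with no overlap, and rose by 0.65 ± 0.08 (adjusted p = 6.53e-08). In A0 it was at 132, 127, 101 and 123 CPM and then 127, 116, 138 and 129.6 CPM, overlapping, with 0.07 ± 0.10, and in CHO-S it ranged over 96.7 to 102 CPM and then 49.5 to 115 CPM (-0.10 ± 0.27, and 0.16 ± 0.05 without culture 1, which passed).

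Lipa and Ctsa were the lumen genes that rose in CHO-S with all cultures. Lipa (gene 100759060), the acid lipase, was at 256, 279 and 262 CPM in exponential and 444, 496 and 495 CPM in stationary CHO-S, at 185, 186 and 185 CPM and then 209, 233 and 247 CPM in A1, and over 169.7 to 196 CPM in A0. All stationary values lay above the exponential ones in CHO-S and A1, culture 1 of CHO-S included, and the phases overlapped in A0. Lipa rose by 0.85 ± 0.12 (adjusted p = 0.00549) in CHO-S, or 0.90 ± 0.043 (adjusted p = 5.04e-34) without culture 1, and by 0.33 ± 0.06 in A1, and its change in A0 was 0.08 ± 0.09. The CHO-S call of Lipa was lost without any 1 exponential culture (adjusted p = 0.0609 to 0.0657). Ctsa, a serine carboxypeptidase that also shields other hydrolases, was at 949, 935 and 903 CPM in exponential and 1092, 1339 and 1337 CPM in stationary CHO-S, without overlap, and ranged over 328 to 409 CPM in A0 and 436 to 559.6 CPM in A1, where the phases overlapped. It rose in CHO-S by 0.44 ± 0.12 (0.53 ± 0.038 without culture 1), with -0.15 ± 0.09 in A0 and 0.12 ± 0.07 in A1 that did not pass. Its CHO-S call was lost without any 1 exponential culture, without stationary culture 2 or 3, and with the replicate block.

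Of the 4 lysosomal membrane genes, 2 rose and 1 fell in A0 and in A1. Lamp1 (gene 100689406), an abundant glycoprotein of that membrane, was at 789, 802, 945 and 925 CPM in exponential and 537, 527, 626 and 614 CPM in stationary A0, and at 585, 558 and 669.8 CPM and then 461, 548 and 532 CPM in A1. In CHO-S it was at 997, 982 and 955 CPM and then 1024, 1224 and 1132 CPM. Stationary cultures were all lower in A0 and in A1 and all higher in CHO-S. Lamp1 fell in A0, at -0.60 ± 0.10 (adjusted p = 0.00019), and in A1, at -0.21 ± 0.06 (adjusted p = 0.00955), and in CHO-S the change was 0.21 ± 0.11 (adjusted p = 0.244), or 0.27 ± 0.039 (adjusted p = 3.81e-09) without culture 1, which passed. The A1 call was lost without exponential culture 3 or stationary culture 1 (adjusted p = 0.188 and 0.121) and with all 6 groups in 1 fit. Lamp2, another glycoprotein there with a part in chaperone-mediated autophagy, was at 138, 137, 168 and 151 CPM and then 225, 245, 204 and 194 CPM in A0, 118 to 126 CPM and then 139 to 146 CPM in A1, and 132, 131 and 125 CPM and then 200.2, 194 and 193 CPM in CHO-S. It was higher in every stationary culture of each line, with 0.54 ± 0.10 in A0, 0.25 ± 0.06 in A1 and 0.60 ± 0.12 (adjusted p = 0.0178) in CHO-S (0.58 ± 0.049 (adjusted p = 6.17e-19) without culture 1). Without any 1 exponential culture of CHO-S, or without its stationary culture 2 or 3, the CHO-S call of Lamp2 was lost (adjusted p = 0.0739 to 0.116). Npc1, which exports cholesterol, ranged over 57.2 to 73.9 CPM and then 73.3 to 107 CPM in A0 and 65.5 to 76.99 CPM and then 79.98 to 82.5 CPM in A1, where it rose by 0.46 ± 0.12 and 0.18 ± 0.07, and over 46.4 to 52.8 CPM in CHO-S (-0.02 ± 0.13, and 0.012 ± 0.07 without culture 1, neither called). Mcoln1, a lysosomal calcium channel, ranged over 13.4 to 27.6 CPM, with changes from -0.29 in CHO-S to 0.17 in A0, none of which passed edgeR's test.

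Of the 3 MiT/TFE transcription factors, 2 fell in A0 and in A1 while most of the lumen and LC3 genes rose. Tfeb (gene 100769893) was at 8.35, 8.43, 10.4 and 10.7 CPM in exponential and 3.26, 3.36, 5.85 and 5.10 CPM in stationary A0, the latter from 35 to 75 counts per culture. It was at 11.1, 12.4 and 10.7 CPM and then 7.68, 7.71 and 9.32 CPM in A1, and at 17.1, 17.5 and 17.5 CPM and then 10.3, 19.9 and 19.5 CPM in CHO-S, where culture 1 rested on 10 counts. All stationary cultures of A0 and A1 were lower than all exponential ones, and in CHO-S cultures 2 and 3 were higher and culture 1 lower. Tfeb fell in A0, at -1.11 ± 0.19 (adjusted p = 0.000221), and in A1, at -0.44 ± 0.14 (adjusted p = 0.0124), with 0.11 ± 0.14 (adjusted p = 0.687) in CHO-S, or 0.19 ± 0.10 (adjusted p = 0.131) without culture 1. The A1 call was lost without exponential culture 2 or stationary culture 2 (adjusted p = 0.0614 and 0.0711), by DESeq2 and with all 6 groups in 1 fit. Tfe3 was at 141, 146, 164 and 117 CPM and then 120.2, 121, 113 and 117 CPM in A0, 124, 127 and 129 CPM and then 96.8, 97.4 and 96.5 CPM in A1, and 249.7, 234 and 234 CPM and then 167, 199 and 204 CPM in CHO-S. Its phases were apart in A1 and CHO-S and overlapped in A0, with -0.28 ± 0.10 (adjusted p = 0.042) in A0, -0.37 ± 0.06 (adjusted p = 9.57e-06) in A1 and -0.32 ± 0.13 in CHO-S, which did not pass (-0.24 ± 0.047 without culture 1, which did). The A0 call of Tfe3 was lost when any culture other than exponential culture 4 was left out (adjusted p = 0.0633 to 0.131), by DESeq2, with RLE or upper-quartile scaling, with the filterByExpr filter and with A0 cultures 3 and 4 only. Mitf ranged over 17.1 to 27.4 CPM, with changes between -0.06 in A0 and 0.13 in CHO-S.

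**Figure D2:**
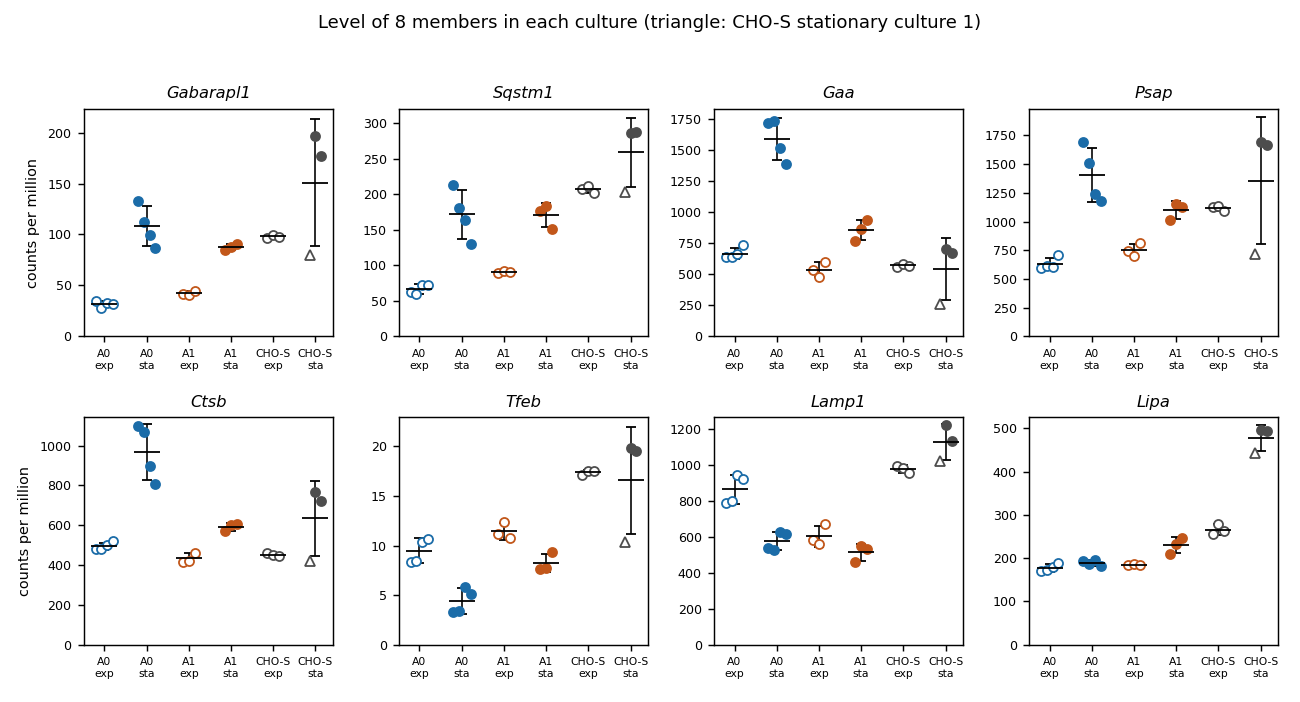
Normalised read counts (CPM, y axis) of Gabarapl1, Sqstm1, Gaa, Psap, Ctsb, Tfeb, Lamp1 and Lipa in each culture of A0, A1 and CHO-S at exponential and stationary phase (x axis), with lines for the group mean ± SD (n = 4 in A0, n = 3 in A1 and CHO-S) and a triangle for CHO-S stationary culture 1. Stationary A0 stands above exponential A0 for Gabarapl1, Sqstm1, Gaa, Psap and Ctsb and under it for Tfeb and Lamp1.

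The stationary response of A1 was weaker than that of A0, or opposite, for most of the members that differed. The test of the difference between the responses (A1 minus A0, log2) called 1 member higher and 8 lower, against 5.04% and 3.90% of all genes, with a median of -0.15 against 0.017. With a replicate block 3 were higher and 13 lower, and the number of all genes called went from 1873 to 3435. Without A1 exponential culture 3, 1 was higher and 3 lower, with 1165 of all genes called. With all 6 groups in 1 fit edgeR called 0 members and 973 of all genes, with 4 members higher and 11 lower at an unadjusted p under 0.05. The 5 calls given below with an adjusted p were then lost. The 8 lower ones were Gabarapl1 and 7 of the 11 lumen genes, namely Ctsb, Ctsz, Gla, Gaa, Gusb, Npc2 and Psap. Among them, Gusb rose in A0 and fell in A1, and Ctsz fell in A1 with no call in A0. The largest differences were -0.71 ± 0.16 (adjusted p = 0.00671) for Gabarapl1, -0.62 ± 0.15 (adjusted p = 0.0122) for Psap, -0.59 ± 0.18 (adjusted p = 0.0391) for Gla and -0.58 ± 0.18 (adjusted p = 0.0412) for Gusb. Hexa was the 1 member called with a positive difference, at 0.54 ± 0.15 (adjusted p = 0.0228). Several of these calls were lost when 1 culture was left out, with the direction of the difference kept. Psap was lost without A1 exponential culture 3 (adjusted p = 0.0524). Hexa was lost without A1 exponential culture 1 or 2 or stationary culture 2 or 3 (adjusted p = 0.0647 to 0.0871), where its difference was 0.46 to 0.53. Gla was lost without A0 exponential culture 2 or 3, A0 stationary culture 1 or 2 or any 1 culture of A1 (adjusted p = 0.0522 to 0.135), and Gusb without A0 exponential culture 3 or 4, A0 stationary culture 1 or 2 or any 1 culture of A1 (adjusted p = 0.054 to 0.101). Within stationary A0, cultures 1 and 2 lay above cultures 3 and 4 for Gabarapl1, Sqstm1, Ctsb, Ctsd, Gla, Gaa, Npc2 and Psap, and with A0 cultures 1 and 2 alone 3 members were higher and 19 lower, where the number of all genes called went from 1873 to 4588. With A0 cultures 3 and 4 alone 0 were higher and 4 lower, and the calls of Psap, Gla and Hexa were lost.

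Against CHO-S, the response of A0 was larger for 5 members and smaller, or opposite, for 4, where 3.78% and 6.57% of all genes were called, with a median of 0.18 against -0.032. Without CHO-S stationary culture 1 the counts were 8 and 4, against 8.43% and 8.75% of all genes, with a median of 0.16 against 0.034, and the 9 earlier calls were kept. The difference (A0 minus CHO-S, log2) was 1.27 ± 0.32 (adjusted p = 0.0123) for Gaa, 1.06 ± 0.29 (adjusted p = 0.0247) for Gabarapl1, 1.001 ± 0.23 (adjusted p = 0.00671) for Sqstm1 and 0.82 ± 0.20 (adjusted p = 0.013) for Atg13. The same differences without culture 1 were 1.01 ± 0.14, 0.87 ± 0.17, 0.93 ± 0.18 and 0.74 ± 0.14, all called. Map1lc3b was the fifth, at 0.63 ± 0.20 and 0.63 ± 0.17 without culture 1. In the other direction stood Tfeb at -1.20 ± 0.28 (adjusted p = 0.00775), Lamp1 at -0.82 ± 0.17 (adjusted p = 0.00413), Lipa at -0.78 ± 0.16 (adjusted p = 0.00315) and Ctsa at -0.60 ± 0.17 (adjusted p = 0.0276). Their values without culture 1 were -1.24 ± 0.24, -0.82 ± 0.13, -0.77 ± 0.11 and -0.63 ± 0.12, all called. With A0 cultures 3 and 4 alone 0 members were higher and 4 lower, and the number of all genes called went from 2159 to 1095. In that fit Gaa, Gabarapl1, Sqstm1, Atg13 and Map1lc3b lost their calls. Gaa, Gabarapl1 and Ctsa also lost theirs with A0 cultures 1 and 2 alone. Without A0 exponential culture 2, or without any 1 exponential culture of CHO-S, the counts were 3 and 3, and without A0 stationary culture 1 they were 3 and 4. By DESeq2 and with all 6 groups in 1 fit they were 8 and 4, and with upper-quartile scaling 7 and 4. The Gabarapl1 call was lost without A0 exponential culture 2, A0 stationary culture 1 or any 1 exponential culture of CHO-S (adjusted p = 0.0537 to 0.0631). Ctsa was lost without A0 exponential culture 2 or 3, A0 stationary culture 2 or 4, any 1 exponential culture of CHO-S or its stationary culture 2 or 3 (adjusted p = 0.0515 to 0.0863).

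The responses of A1 and CHO-S differed in 1 member with all cultures, Lipa, at -0.53 ± 0.14 (adjusted p = 0.0348) (A1 minus CHO-S, log2). So 0 members were higher and 1 was lower by edgeR, against 3.83% and 3.77% of all genes; at an unadjusted p under 0.05 the counts were 6 and 5, DESeq2 called 1 higher and 3 lower, and the median was 0.057 against 0.028. The Lipa call was lost in 10 of the 12 fits with 1 culture left out, all but those without A1 stationary culture 3 or CHO-S stationary culture 1 (adjusted p = 0.0749 to 0.103), and with the replicate block. In 9 of those 10, all but that without A1 exponential culture 2, edgeR called 0 members, with 5 to 9 higher and 3 to 5 lower at an unadjusted p under 0.05. The number of all genes called in these 9 was as low as 782, against 1495 with all cultures. Without CHO-S stationary culture 1, 7 members were higher and 11 lower, against 13% and 12.4% of all genes, with a median of -0.00013 against 0.026, and Lipa stood at -0.58 ± 0.08. The 11 lower ones included Ctsz at -0.75 ± 0.08, Tfeb at -0.64 ± 0.17, Gusb at -0.57 ± 0.08 and Lamp1 at -0.50 ± 0.08, and the 7 higher ones Atg9a at 0.55 ± 0.09, Atg14 at 0.53 ± 0.16 and Hexa at 0.47 ± 0.10.

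Between the lines, A1 held less mRNA than its parent A0 for more members than it held more. For comparisons of lines, the share of all genes without overlap was not computed. The members given here and below with full statistics were chosen for large called changes, so their lack of overlap describes the values and is no separate support. In exponential cultures 7 members were higher and 13 lower in A1, against 12% and 13.8% of all genes, with a median of -0.047 against -0.039. Without A1 exponential culture 3 the counts were 4 and 10, and the number of all genes called went from 5163 to 3160. The members higher in exponential A1 were led by Map1lc3a at 1.22 ± 0.19 (adjusted p = 0.000235), Atg4b at 0.69 ± 0.11 (adjusted p = 0.000293), Atg13 at 0.47 ± 0.10 (adjusted p = 0.00204), Sqstm1 at 0.45 ± 0.09 (adjusted p = 0.00269) and Gabarapl1 at 0.40 ± 0.10 (adjusted p = 0.00816), and A1 lay above A0 in every exponential culture for these 5. The other 2 were Ctsa and Ctsz, at 0.31 and 0.26. The Gabarapl1 call was lost without A1 exponential culture 3 (adjusted p = 0.0619) and with all 6 groups in 1 fit. Hexa, at 132, 127, 101 and 123 CPM in A0 and 68.97, 66.5 and 81.3 CPM in A1, was lower in every A1 culture, at -0.74 ± 0.11 (adjusted p = 0.000218). Atg3 was at 101, 101, 98.8 and 103 CPM and 64.8, 65.5 and 64.4 CPM, with no overlap, at -0.64 ± 0.08 (adjusted p = 5.82e-05). Wipi2 was at 137, 118, 107 and 88.6 CPM and 71.3, 77.6 and 69.1 CPM, and Becn1 at 70.2, 67.6, 68.3 and 72.4 CPM and 47.5, 43.1 and 45.97 CPM. Neither overlapped between the lines, with -0.63 ± 0.13 (adjusted p = 0.00176) for Wipi2, -0.61 ± 0.09 (adjusted p = 0.000153) for Becn1 and -0.60 ± 0.09 (adjusted p = 0.000335) for Nbr1, which was also apart.

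In stationary cultures the balance was further to the lower side, with 6 members higher and 18 lower in A1, against 16% and 17.7% of all genes, and a median of -0.21 against -0.0021. Of the 11 lumen genes, 8 were lower in stationary A1 and 2 higher. The lower members were led by Gusb at -1.13 ± 0.09 (adjusted p = 3.61e-07), Gla at -1.08 ± 0.12 (adjusted p = 1.45e-05), Gaa at -0.90 ± 0.09 (adjusted p = 5.49e-06), Nbr1 at -0.82 ± 0.08 (adjusted p = 4.02e-06) and Map1lc3b at -0.78 ± 0.10 (adjusted p = 3.5e-05), and for each of these the A1 cultures all lay below the lowest A0 culture. Gaa, for example, was at 772 to 934 CPM in stationary A1 against 1386 to 1735 CPM in stationary A0. The higher ones were Tfeb at 0.89 ± 0.21 (adjusted p = 0.0042), Map1lc3a at 0.61 ± 0.14 (adjusted p = 0.00411), Ctsa at 0.54 ± 0.09 (adjusted p = 0.000235), Atg4b at 0.40 ± 0.08 (adjusted p = 0.00178), Gabarap at 0.28 ± 0.08 (adjusted p = 0.0178) and Lipa at 0.27, all without overlap. Gabarap lost its call without A1 stationary culture 2 or 3 (adjusted p = 0.104 and 0.111) and with all 6 groups in 1 fit. Becn1, Atg3, Wipi2, Map1lc3b, Gabarapl2, Nbr1, Lamp2, Gla, Gaa and Gusb were lower in A1 in both phases, Atg4b, Map1lc3a and Ctsa were higher in both, and Ctsz was higher in exponential and lower in stationary cultures (0.26 and -0.26).

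Exponential A0 differed from exponential CHO-S in 28 members, 11 higher and 17 lower in A0, against 27.6% and 21.9% of all genes, with a median of -0.13 against 0.14. Without CHO-S exponential culture 1, 2 or 3 the counts were 7 and 13, 6 and 13, and 4 and 14. Sqstm1, at 59.6 to 72.4 CPM in A0 and 201 to 212 CPM in CHO-S, and Gabarapl1, at 27.9 to 34.9 CPM and 96.8 to 99.5 CPM, were the members farthest below CHO-S. Ctsa was at 354 to 409 CPM in A0 and 903 to 949 CPM in CHO-S, and none of the 3 overlapped between the lines. The differences were -1.63 ± 0.09 (adjusted p = 2.89e-09) for Sqstm1, -1.62 ± 0.09 (adjusted p = 3.33e-09) for Gabarapl1, -1.27 ± 0.08 (adjusted p = 1.2e-08) for Ctsa, -1.13 ± 0.11 (adjusted p = 1.21e-06) for Atg12 and -1.05 ± 0.09 (adjusted p = 2.43e-07) for Atg13. On the higher side were Atg16l1 at 0.81 ± 0.09 (adjusted p = 4.86e-06), Atg9a at 0.56 ± 0.09 (adjusted p = 8.67e-05), Gusb at 0.48 ± 0.14 (adjusted p = 0.00997), Atg3 at 0.43 ± 0.08 (adjusted p = 0.000292) and Wipi2 at 0.40 ± 0.12 (adjusted p = 0.0147). Wipi2 overlapped between the lines, at 88.6 to 137 CPM in A0 and 82.96 to 90.1 CPM in CHO-S, and its call was lost without CHO-S exponential culture 2 or 3 (adjusted p = 0.0754 and 0.0609). With A0 cultures 3 and 4 only the calls of Gusb and Wipi2 were lost.

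In stationary cultures 9 members were higher and 10 lower in A0 than in CHO-S, against 20.7% and 19.3% of all genes, with a median of 0.12 against 0.080. Without CHO-S stationary culture 1 the counts were 14 and 14, against 28.0% and 23.8% of all genes, with a median of 0.14 against 0.13, and the 19 earlier calls were kept. Without A0 stationary culture 1 they were 4 and 10, and without culture 2 of that group 5 and 9. With A0 cultures 1 and 2 only they were 5 and 6, and with cultures 3 and 4 only 3 and 8. The replicate block here joined cultures of the same number across the lines, which have no known pairing. With it the counts were 5 and 6, and the number of all genes called went from 7606 to 5043. Gaa was higher in stationary A0 by 1.52 ± 0.30 (adjusted p = 0.00241), Atg9a by 1.51 ± 0.31 (adjusted p = 0.00317), Atg16l1 by 1.03 ± 0.16 (adjusted p = 0.000708), Npc1 by 0.86 ± 0.17 (adjusted p = 0.00244) and Npc2 by 0.82 ± 0.24 (adjusted p = 0.0189), all without overlap. Without culture 1 these values were 1.22 ± 0.11, 1.26 ± 0.10, 0.97 ± 0.12, 0.87 ± 0.14 and 0.59 ± 0.10. The Npc2 call was lost without A0 stationary culture 1 or 2 (adjusted p = 0.0545 and 0.0515) and with A0 cultures 1 and 2 or 3 and 4 only, that of Gaa with cultures 3 and 4 only, and that of Atg9a with cultures 1 and 2 only. Tfeb was lower in A0, at -2.05 ± 0.25 (adjusted p = 0.000133), Ctsa at -1.86 ± 0.14 (adjusted p = 4.01e-06), Lipa at -1.35 ± 0.13 (adjusted p = 2.19e-05), Atg12 at -1.13 ± 0.16 (adjusted p = 0.000266) and Lamp1 at -0.99 ± 0.13 (adjusted p = 0.000211), again with no overlap. Their values without culture 1 were -2.13 ± 0.21, -1.92 ± 0.08, -1.37 ± 0.07, -1.10 ± 0.14 and -1.02 ± 0.09. Sqstm1 remained lower in stationary A0 (-0.62 ± 0.20, and -0.73 ± 0.14 without culture 1), whereas the -0.53 ± 0.27 of Gabarapl1 did not pass with all cultures and its -0.78 ± 0.13 without culture 1 did.

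Most members were lower in exponential A1 than in exponential CHO-S: 8 were higher and 23 lower, against 30.0% and 27.1% of all genes, with a median of -0.40 against 0.055. The lower members were led by Gabarapl1 at -1.23 ± 0.06 (adjusted p = 1.07e-14), Sqstm1 at -1.19 ± 0.046 (adjusted p = 3.44e-16), Ulk1 at -1.08 ± 0.07 (adjusted p = 1.02e-11), Atg14 at -0.99 ± 0.11 (adjusted p = 3.3e-08) and Ctsa at -0.97 ± 0.048 (adjusted p = 2.24e-14). Ulk1, for example, was at 19.9, 18.5 and 19.1 CPM in A1 and 41.3, 39.5 and 40.3 CPM in CHO-S, and Atg14 at 10.96, 14.2 and 11.4 CPM and 21.1, 24.98 and 26.05 CPM. For these 5 every A1 culture was below every CHO-S culture. Higher in A1 were Atg4b, at 49.1, 40.97 and 44.3 CPM against 24.1, 25.3 and 27.1 CPM, Atg16l1, Npc1, Map1lc3a and Atg9a. The lines did not overlap for these 5, and the differences were 0.81 ± 0.08 (adjusted p = 4.76e-09) for Atg4b, 0.79 ± 0.07 (adjusted p = 3.31e-10) for Atg16l1, 0.55 ± 0.07 (adjusted p = 1.85e-07) for Npc1, 0.51 ± 0.14 (adjusted p = 0.0023) for Map1lc3a and 0.50 ± 0.05 (adjusted p = 1.08e-08) for Atg9a. Map1lc3a lost its call without A1 exponential culture 3 (adjusted p = 0.0589).

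In stationary cultures 5 members were higher and 12 lower in A1 than in CHO-S, against 18.2% and 16.6% of all genes, with a median of -0.34 against 0.062. Without CHO-S stationary culture 1, 6 were higher and 26 lower, against 29.9% and 27.5% of all genes, with a median of -0.45 against 0.073, and the 17 earlier calls were kept. Without any 1 stationary culture of A1, 2 were higher and 8 lower, and without CHO-S stationary culture 3 the counts were 3 and 8. The number of all genes called went from 6345 to 4054 and 4098 without A1 stationary culture 2 or 3. Ctsa was lower in A1, at -1.32 ± 0.16 (adjusted p = 0.000419), Tfeb at -1.17 ± 0.19 (adjusted p = 0.00235), Lamp1 at -1.15 ± 0.14 (adjusted p = 0.000477), Lipa at -1.08 ± 0.14 (adjusted p = 0.000731) and Tfe3 at -0.998 ± 0.14 (adjusted p = 0.00118). Without culture 1 these were -1.41 ± 0.07, -1.27 ± 0.14, -1.22 ± 0.06, -1.13 ± 0.06 and -1.08 ± 0.07, and with all cultures none of the 5 overlapped between the lines. Atg9a was higher in A1 by 1.33 ± 0.35 (adjusted p = 0.0196), Atg4b by 1.12 ± 0.30 (adjusted p = 0.021), Atg16l1 by 0.87 ± 0.17 (adjusted p = 0.00507), Gabarap by 0.76 ± 0.22 (adjusted p = 0.0298) and Npc1 by 0.72 ± 0.14 (adjusted p = 0.00484), also without overlap. Their values without culture 1 were 1.03 ± 0.08, 0.87 ± 0.10, 0.76 ± 0.10, 0.55 ± 0.07 and 0.68 ± 0.08. The Atg9a call was lost without any 1 stationary A1 culture (adjusted p = 0.0665 to 0.0776), and those of Atg4b (adjusted p = 0.065 to 0.0836) and Gabarap (adjusted p = 0.0558 to 0.105) without any 1 of these or without CHO-S stationary culture 3. In CHO-S culture 1 the value of Atg4b rested on 7 counts. The comparisons of A0 and of A1 with CHO-S share the CHO-S cultures.

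**Figure D3:**
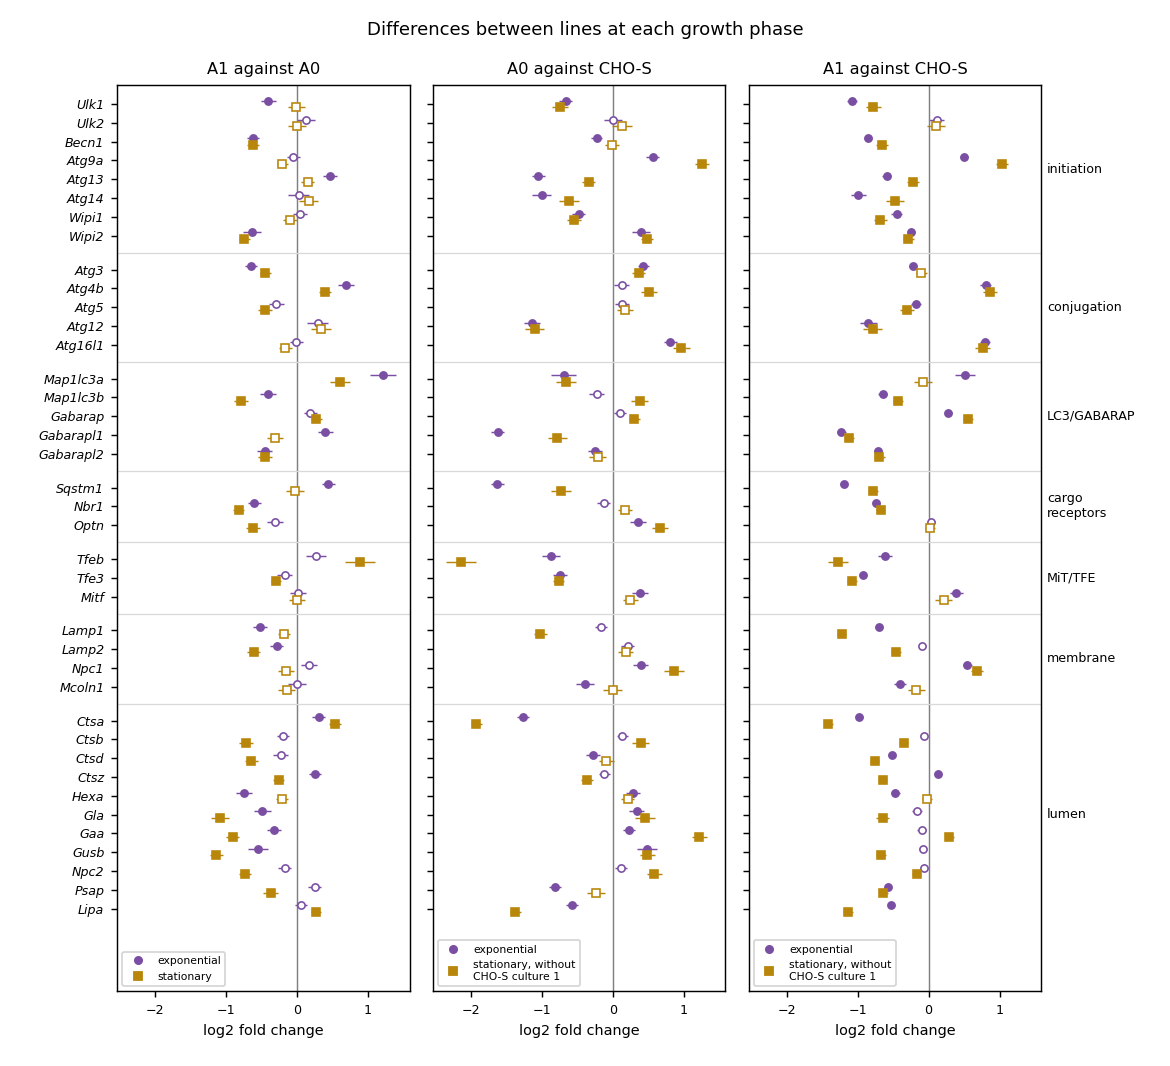
Log2 fold change (x axis) of each of 39 members (y axis, grouped by role) for A1 against A0, A0 against CHO-S and A1 against CHO-S in exponential (circles) and stationary cultures (squares, without CHO-S stationary culture 1), with bars of 1 SE; filled symbols passed the test and open ones did not. Sqstm1 and Gabarapl1 lie left of 0 and Atg16l1 and Atg9a right of 0 in both panels against CHO-S.

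Other genes of the pathway, 114 listed and 110 with an entry, also rose more often than they fell: in stationary A0 44 rose and 14 fell of 108 tested, in A1 42 and 7 of 107, and in CHO-S 56 and 12 of 105 without culture 1. Over all genes the shares that rose and fell were 17.7% and 20.1% in A0, 15.6% and 17.8% in A1, and 23.1% and 24.7% in CHO-S without culture 1, and the counts of the smaller lists that follow stand against the same shares. With that culture, edgeR called 6 in CHO-S (Cd68, Scarb2, Bnip3, Bnip3l, Calcoco1 and Fnip2), all higher, and at an unadjusted p under 0.05 the counts were 18 and 5. These 6 were 2 membrane proteins, 3 cargo receptors and 1 regulator of the MiT/TFE factors. Of the V-ATPase, hydrolase, sorting and autophagosome lists edgeR called 0 genes in CHO-S with all cultures, with 2 higher and 1 lower, 6 and 1, 0 and 0, and 1 and 2 at an unadjusted p under 0.05. The median changes of the other pathway genes were 0.26 in A0, 0.12 in A1 and 0.19 in CHO-S without culture 1 (0.13 with it), against 0.0013, 0.032 and 0.0028 (0.023) over all genes. Of 16 subunits of the V-ATPase, the pump that acidifies the lysosome, 6 rose and 1 fell in A0, 5 rose in A1, and 12 rose and 1 fell in CHO-S without culture 1. Atp6v1b2 changed by 1.12 ± 0.12 in A0 and 0.50 ± 0.06 in A1, and its smaller response in A1 passed the test of the difference (-0.66 ± 0.16). Among further hydrolases and lumen proteins 13 rose and 5 fell of 30 in A0, 11 and 4 of 29 in A1, and 18 and 1 of 28 in CHO-S without culture 1. Neu1, the lysosomal sialidase, rose by 1.58 ± 0.13 in A0, Naglu, which digests heparan sulfate, by 1.09 ± 0.13 in A0 and 0.96 ± 0.11 in A1, and Gm2a, the ganglioside activator, fell in A0 (-1.21 ± 0.11). Of 13 further membrane proteins 7 rose and 1 fell in A0, 8 rose in A1 and 8 rose in CHO-S without culture 1, with Cd68 at 3.78 ± 0.35 in A0, 1.72 ± 0.18 in A1 and 3.05 ± 0.14 in CHO-S.

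Of 8 genes that sort hydrolases to the lysosome 1 rose and 1 fell in A0, 1 rose in A1, and 4 rose and 1 fell in CHO-S without culture 1. Further autophagosome genes gave 9 higher and 4 lower of 24 in A0, 8 and 1 of 24 in A1, and 5 and 7 of 23 in CHO-S without culture 1, and Atg4c, a relative of Atg4b, rose by 1.07 ± 0.12 in A0 and 0.43 ± 0.08 in A1. Among 12 further cargo receptors 5 rose and 1 fell in A0, 6 and 2 in A1, and 6 and 2 in CHO-S without culture 1. Tex264, a receptor for the endoplasmic reticulum, fell in A0 (-1.76 ± 0.11) and A1 (-0.66 ± 0.08), whereas Bnip3, a receptor for mitochondria, rose by 2.67 ± 0.16 in CHO-S and differed from A0 and A1 in its response (-2.44 ± 0.21 for A0 minus CHO-S and -2.45 ± 0.17 for A1 minus CHO-S). Of 5 regulators of the MiT/TFE factors 3 rose and 1 fell in A0, 3 rose in A1 and 3 rose in CHO-S without culture 1, with Fnip2, a partner of folliculin, at 0.57 ± 0.11 in A0, 1.01 ± 0.10 in A1 and 0.62 ± 0.14 in CHO-S. Between the lines, 13 of 106 other genes were higher and 37 lower in stationary A1 than in stationary A0, and 12 and 24 of 108 in exponential cultures, where 16% and 17.7%, and 12% and 13.8%, of all genes were higher and lower. Against CHO-S, 30 of 107 were higher and 34 lower in exponential A0 and 29 and 44 of 107 in exponential A1; without CHO-S stationary culture 1 the stationary counts were 35 and 38 of 106 in A0 and 25 and 56 of 104 in A1, and with it 21 and 25 in A0 and 12 and 26 in A1. Over all genes these shares were 27.6% and 21.9% in exponential A0 and 30.0% and 27.1% in exponential A1, 28.0% and 23.8% in stationary A0 and 29.9% and 27.5% in stationary A1 without that culture, and 20.7% and 19.3%, and 18.2% and 16.6%, with it. Plekhm1, which links lysosomes to autophagosomes, was below CHO-S in exponential A0 (-3.19 ± 0.09) and exponential A1 (-3.28 ± 0.07), as was Atp6v1a, the catalytic V-ATPase subunit (-1.87 ± 0.15 and -1.80 ± 0.048). In the tests of the differences between responses, 6 other genes were higher and 10 lower for A1 minus A0, against 5.04% and 3.90% of all genes. For A0 minus CHO-S the counts were 7 and 7 with all cultures, against 3.78% and 6.57%, and 14 and 12 without CHO-S stationary culture 1, against 8.43% and 8.75%. For A1 minus CHO-S they were 1 and 4, against 3.83% and 3.77%, and 10 and 25 without that culture, against 13% and 12.4%.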

How the data were processed

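Counts per gene were deposited by the authors, who aligned reads of stranded mRNA libraries to the C_griseus_v1.0 genome with STAR 2.5.4b and counted them with HTSeq 0.7.2; the strand setting is not stated. HTSeq left 5.62% of reads unaligned, 16.1% outside genes, 13.9% not unique and 0.376% ambiguous. Members and lists were chosen with earlier results of these data known. Libraries of a culture were summed, and CPM were scaled by TMM over the 20 cultures. edgeR 4.0.16 (R 4.3.3) fitted only the groups compared, on genes with 1 count or more in 2 samples or more and a variance above 0, with a two-sided quasi-likelihood test and Benjamini-Hochberg adjustment over all genes tested, threshold 0.05; all 39 members passed the filter. At the 1038026 counts of CHO-S stationary culture 1, 1 CPM is about 1 count. Differences of responses were interaction contrasts. After centring each phase, A0 cultures of the same number correlated across genes in 4 of 4 numbers (r from 0.19 to 0.416). Numbers 3 and 4 correlated more with another number, however, and A1 and CHO-S cultures did not correlate in all. The main tests therefore took the phases as independent, and the replicate block was an alternative. In comparisons of lines that block joined cultures of the same number across lines, with no known pairing. For stationary A0 and CHO-S the r of these was -0.16, 0.042 and -0.022. Full statistics went to the 5 largest called changes per direction and comparison, and to the 4 largest of each difference of responses; single members named beside them were chosen after their values were seen. Alternatives were DESeq2 1.42.0, RLE or upper-quartile scaling, no filter, filterByExpr, the replicate block, all 6 groups in 1 fit, first A0 libraries only, A0 cultures 1 and 2 or 3 and 4 only, and each culture left out. A planned search of promoter sequences was not run, since none were at hand for this genome.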

Additional observations from a re-analysis of the deposited data

Results flagged for a closer look

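In 4 of the 78 sets of 4 A0 values tested, 1 culture lay far from the other 3, with its gap to the nearest value taking more than 0.829 of the whole range; chance does this in about 1 in 20 sets, or 3.9 of 78. In exponential A0, culture 4 was high for Atg16l1 (0.837 of the range), for Map1lc3b (0.829) and for Psap (0.883), and in stationary A0, culture 1 was high for Wipi2 (0.875). The groups of 3 cultures of A1 and CHO-S were not tested this way.

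The stationary response differed between lines by the interaction test for several members, and up to 4 with the largest differences (log2) in each direction follow. For A1 minus A0, where 9 were called, these were Hexa at 0.54, Gabarapl1 at -0.71, Psap at -0.62, Gla at -0.59 and Gusb at -0.58; all 5 calls were lost with all 6 groups in 1 fit, and those of Hexa, Psap, Gla and Gusb also in fits with 1 culture left out. For A0 minus CHO-S, where 9 were called, they were Gaa at 1.27, Gabarapl1 at 1.06, Sqstm1 at 1.001, Atg13 at 0.82, Tfeb at -1.20, Lamp1 at -0.82, Lipa at -0.78 and Ctsa at -0.60; the calls of Gaa, Gabarapl1, Sqstm1 and Atg13 were lost with A0 cultures 3 and 4 only, and those of Gabarapl1 and Ctsa in fits with 1 culture left out. For A1 minus CHO-S it was Lipa, at -0.53, a call lost in 10 of the 12 fits with 1 culture left out.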

How the results depend on the processing

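Of the 97 fold changes and differences given with full statistics, 65 kept their direction and their side of the threshold under every alternative, 32 lost the call under at least 1, and 0 reversed. Over all alternatives this made 1590 values, of which 1445 kept the call and 145 lost it, 104 of them with 1 culture left out; the other losses included 11 of 97 with all 6 groups in 1 fit, 6 of 97 with the replicate block, 5 of 61 with A0 cultures 1 and 2 only and 12 of 61 with cultures 3 and 4 only.

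The number of members called moved by over 1.5 times in the cases that follow, and the cause was not tested. With all 6 groups in 1 fit it was 13 for stationary phase in A1 (28 with only its groups), 11 in CHO-S (7) and 0 for A1 minus A0 (9), where edgeR gave 4 higher and 11 lower at an unadjusted p under 0.05. With the replicate block it was 0 for stationary phase in CHO-S (7 higher and 1 lower unadjusted by edgeR), 16 for A1 minus A0 (9) and 0 for A1 minus CHO-S (7 higher and 2 lower unadjusted). It was 11 for A0 against CHO-S at stationary phase (19 without), where the block joined cultures across lines with no known pairing. For stationary phase in A0 the replicate block moved no count by that much. With A0 cultures 1 and 2 only it was 11 for A0 against CHO-S at stationary phase and 22 for A1 minus A0, and with cultures 3 and 4 only 15 for stationary phase in A0 (24 with all), 11 for A0 against CHO-S at stationary phase, 4 for A1 minus A0 and 4 for A0 minus CHO-S (9). For A1 minus CHO-S (1) it was 4 by DESeq2, 2 with upper-quartile scaling and 2 with filterByExpr.

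When 1 culture at a time was left out, the number of members called ranged from 20 to 23 for stationary phase in A0, 21 to 25 in A1 and 0 to 28 in CHO-S. For A1 against A0 it ranged from 14 to 23 at exponential and 22 to 26 at stationary phase, for A0 against CHO-S from 18 to 30 and 14 to 28, and for A1 against CHO-S from 30 to 33 and 10 to 32. It ranged from 4 to 11 for A1 minus A0, 6 to 12 for A0 minus CHO-S and 0 to 18 for A1 minus CHO-S.

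The number of all genes called also moved by over 1.5 times in some settings. With all 6 groups in 1 fit it went from 6196 to 2470 for stationary phase in A1, from 2308 to 4107 in CHO-S and from 1873 to 973 for A1 minus A0. With the replicate block it was 350 for stationary phase in CHO-S, 5043 in place of 7606 for A0 against CHO-S at stationary phase, 3435 for A1 minus A0 and 518 in place of 1495 for A1 minus CHO-S. It was 4588 for A1 minus A0 with A0 cultures 1 and 2 only and 1095 in place of 2159 for A0 minus CHO-S with cultures 3 and 4 only. Without CHO-S stationary culture 1 it was 8269 for stationary phase in CHO-S, 10451 in place of 6345 for A1 against CHO-S at stationary phase, 3586 for A0 minus CHO-S and 4990 for A1 minus CHO-S. Other cultures left out lowered it: for stationary phase in CHO-S to 310, 0 and 282 without exponential culture 1, 2 or 3 and to 337 and 574 without stationary culture 2 or 3, for A1 against A0 at exponential phase from 5163 to 3160 at the lowest, for A1 against CHO-S at stationary phase to 4051, for A1 minus A0 to 1003, for A0 minus CHO-S to 1375 and for A1 minus CHO-S to 782. Scaling by RLE or upper quartiles moved the median of the tested genes with a mean log2 CPM above 0 by less than 0.1 (log2), at most 0.097. The depth of 1038026 counts in CHO-S stationary culture 1 left 7 to 19 counts for Atg4b, Atg9a, Tfeb, Ulk2, Map1lc3a, Mcoln1, Atg16l1 and Atg12, so values of that culture for these members carry a wide counting error.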
